A study of Mus musculus with 7 samples.

Results

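The 7 mature arms described here belong to the miR-99/100 and miR-125 families of the mouse and were taken by name: mmu-miR-99a-5p, mmu-miR-99b-5p, mmu-miR-99b-3p, mmu-miR-100-5p, mmu-miR-125a-5p, mmu-miR-125a-3p and mmu-miR-125b-5p. All 7 were found, among 950 mature miRNAs in all. Small RNAs bound to Flag-tagged Ago2 had been counted, after immunoprecipitation with an anti-Flag antibody, in mouse embryonic stem cells that carry no Argonautes of their own. There were 7 libraries, 1 for each group: 5 Ago2 mutants, named K566A, Q548A, GKT_GKGT, PGKTP_AAAAA and R792A_C793A, wild-type Ago2 (WT), and a control labelled empty. The Argonaute-null background and the stem cell type are shared by all 7 groups, and the cells grew on gelatin with serum and leukemia inhibitory factor. The promoter that drives Ago2, and whether a line is a single clone, are not stated in the labels. The title of the series poses the role of Argonaute in small-RNA asymmetry, the uneven use of the strands of a duplex.

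A microRNA is cut from a hairpin as a duplex, and Ago2 keeps 1 strand as the guide and loses the other. The guide's first base sits in a pocket of the MID domain, where K566 and Q548 lie and where the loop changed in GKT_GKGT and PGKTP_AAAAA faces that base, whereas R792 and C793 lie in the PIWI domain. The bases after it, the seed, pair with target messages. miR-125 is the vertebrate relative of worm lin-4, and miR-100 is among the oldest animal microRNAs. In mammals each let-7 cluster of the kind shown here carries a miR-99/100 gene and a miR-125 gene on the same transcript. miR-99, miR-100 and miR-125b are best known from differentiated tissues, and miR-125a and miR-99b are also made in stem cells.

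The sequences are shown because relatives with the same seed differ in the first base, the base that the mutated loop faces. The seed, bases 2 to 8, is in capitals. All 7 were matched by name to RefSeq (table build GRCm38.p6).
miR-99b-5p: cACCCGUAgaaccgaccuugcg
miR-99a-5p: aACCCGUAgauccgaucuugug
miR-100-5p: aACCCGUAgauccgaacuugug
miR-99b-3p: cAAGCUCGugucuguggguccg
miR-125a-5p: uCCCUGAGacccuuuaaccuguga
miR-125b-5p: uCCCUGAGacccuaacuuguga
miR-125a-3p: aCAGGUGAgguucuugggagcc

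miR-99b-5p, miR-99a-5p and miR-100-5p share a seed, but miR-99b-5p begins with C and the other two with A. Counted from the 5' end, miR-99b-5p differs from miR-99a-5p by C1A, A11U, C16U and C21U, and from miR-100-5p by C1A, A11U, C16A and C21U. miR-99a-5p and miR-100-5p differ by U16A alone, so reads with an error at that base could have been counted for the wrong name, and their split is uncertain. miR-125a-5p and miR-125b-5p share their first 13 bases, and both begin with U. The GC content was 63.6% in miR-99b-5p and miR-99b-3p, 59.1% in miR-125a-3p and 50% in the other 4 arms. A single further miRNA in the counts had the miR-125 seed, miR-351-5p, also U-first, at 62.5% GC.

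The hairpin of miR-125a is shown because the balance of its arms changed more in K566A than that of miR-99b. In the other Ago2 libraries its 3p arm took 0.864% to 2.31% of the hairpin's counts. The 3p arm of miR-99b took 1.09% to 4.95% there, a wider range. The capitals mark the 5p arm and then the 3p arm.
mir-125a hairpin: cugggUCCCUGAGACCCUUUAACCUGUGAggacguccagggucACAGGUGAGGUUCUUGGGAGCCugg

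The genes lie in 3 clusters (mm9). miR-99b, let-7e and miR-125a span 0.683 kb of chromosome 17, from 17967158 to 17967840. miR-99a and a copy of miR-125b span 47.4 kb of chromosome 16, from 77599185 to 77646584, and miR-100 and the other copy of miR-125b span 50.6 kb of chromosome 9, from 41339520 to 41390084. In the GENCODE M21 annotation, used by gene name only, miR-99b lay in an intron of the protein-coding gene Spaca6, miR-125a overlapped an exon of it, and miR-99a and miR-125b-2 lay in introns of the noncoding gene Mir99ahg. The copies of miR-125b cannot be told apart by their 5p sequence, and their loci had equal counts in each library.

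The total count ran from 14914048 (K566A) to 94842507 (WT) in the 6 Ago2 libraries and was 33461 in the empty control, so a count of 0, taken as at most 3 counts, allows up to 0.201 CPM (counts scaled to a library total of 1000000) in K566A, 0.0316 CPM in WT and 89.7 CPM in the control. Counting error alone is covered by these limits and by all intervals. With 1 library per group nothing below has a replicate check, no p-value could be given, and the 5 comparisons with WT share its single library. miR-292-5p, the dominant stem cell miRNA, took 57.3% to 70.5% of counts, but 21.7% in K566A. Stem cell markers (miR-290 to miR-295 and miR-302, 10 of 10 found) summed to 591219 CPM in K566A and to between 722356 and 789115 CPM in the other 5 Ago2 libraries. Of these 10, miR-292-5p alone had a lower CPM in K566A than in WT (217072 against 636783 CPM), and 6 were more than 2-fold higher in K566A, among them miR-294-3p with 92682 CPM against 19962 CPM in WT. Markers of other cells were low beside these, and differed in K566A. The 3 neural markers summed to 25017 CPM there, against 3737 to 7629 CPM in the other Ago2 libraries. Most of this sum was miR-128-3p, with 24578 CPM in K566A and 3882 CPM in WT. miR-9-5p had 360 and miR-124-3p 79.5 CPM in K566A, against 71.5 and 13.1 CPM in WT. The 6 fibroblast or mesenchymal markers summed to 4608 CPM in K566A against 618 to 1275 CPM, and miR-143-3p made up 3968 CPM of the K566A sum. miR-214-3p was at 0 in K566A, GKT_GKGT and the empty control, and miR-145-5p at 0.134 CPM in K566A. The 3 muscle markers summed to 7.84 CPM against 1.10 to 2.49 CPM, and the 2 of 3 blood markers found to 38.0 CPM against 5.18 to 19.4 CPM, with miR-223-3p at 0 in all 7 libraries. The part of these in the K566A results was not tested.

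A single arm held most of the counts. miR-99b-5p made up 65.2% of the counts of the 7 arms in K566A, 84.7% in WT and between 86.8% and 89.9% in the other 5 libraries. The 7 arms together took 0.579% of all counts in K566A, 2.54% in R792A_C793A, 1.90% in Q548A, 1.86% in GKT_GKGT, 1.48% in PGKTP_AAAAA and 1.75% in WT. K566A thus had the smallest share; its interval (0.576 to 0.583%) overlapped that of no other library.

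miR-99b-5p, the guide arm of its hairpin, stood at 3779.5 CPM in K566A, 22829 in R792A_C793A, 16791 in Q548A, 16174 in GKT_GKGT, 12964 in PGKTP_AAAAA and 14866 in WT. It ranked between 4 and 6 among all miRNAs in 5 of these libraries, and 32 in K566A. K566A stood far below the rest, and no pair of neighbours in this order had overlapping intervals. miR-99b-3p, from the other strand, had 221 CPM in K566A, 252 in R792A_C793A, 194 in Q548A, 842 in GKT_GKGT, 422 in PGKTP_AAAAA and 389 in WT. GKT_GKGT was the highest library for this arm, and the 3 mutants K566A, Q548A and R792A_C793A were below WT.

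miR-100-5p and miR-99a-5p were rare. miR-100-5p had 11.9 CPM in K566A, 11.2 in R792A_C793A, 6.71 in Q548A, 4.85 in GKT_GKGT, 4.41 in PGKTP_AAAAA and 5.98 in WT. Its intervals overlapped between K566A and R792A_C793A, and between each pair of neighbours from Q548A down to PGKTP_AAAAA. miR-99a-5p had 17.4 CPM in K566A, 4.60 in R792A_C793A, 4.24 in Q548A, 2.66 in GKT_GKGT, 2.85 in PGKTP_AAAAA and 2.59 in WT. K566A stood above the rest, Q548A and R792A_C793A overlapped, and the 3 lowest libraries did not differ beyond counting error from their neighbours. Both arms missed the minimum mean of 10 CPM over the 6 Ago2 libraries (7.51 and 5.72 CPM), so 5 of the 7 arms were among the 337 miRNAs that could be called; these are termed tested, although no replicate test stands behind a call.

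miR-125a-5p, the guide arm of its hairpin, had 1211 CPM in K566A, 2217 in R792A_C793A, 1988 in Q548A, 1513 in GKT_GKGT, 1396 in PGKTP_AAAAA and 2212 in WT. R792A_C793A and WT did not differ beyond counting error, and K566A was the lowest. miR-125a-3p had 439.9 CPM in K566A, 46.6 in R792A_C793A, 17.3 in Q548A, 35.8 in GKT_GKGT, 14.8 in PGKTP_AAAAA and 38.3 in WT. K566A stood far above the other 5, between which GKT_GKGT and WT overlapped. miR-125b-5p had 114 CPM in K566A, 48.0 in R792A_C793A, 37.1 in Q548A, 28.4 in GKT_GKGT, 33.4 in PGKTP_AAAAA and 33.3 in WT. It too was highest in K566A, and PGKTP_AAAAA and WT overlapped.

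**Figure D1:**
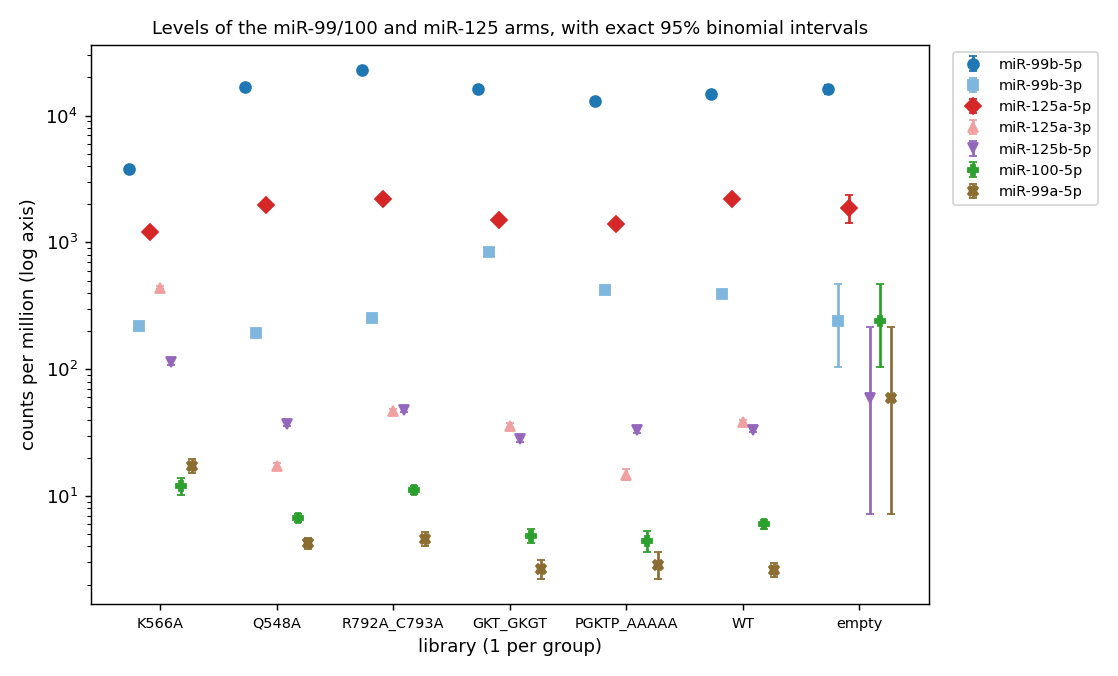
Level of each arm (CPM, log axis) in each library, with exact 95% binomial intervals; an arm with no count is not drawn. miR-99b-5p is the highest arm in each library, and in K566A it is at 3779.5 CPM while miR-125a-3p is at 439.9 CPM, against 14866 and 38.3 CPM in WT.

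In K566A miR-99b-5p was lower, and miR-125a-3p and miR-125b-5p were higher, than in WT. Calls required that the whole 95% interval of the CPM ratio (exact, conditional on the summed count) lay above 2 or below 0.5. Of the 5 tested arms 2 were called higher and 1 lower, where 47.5% of all tested miRNAs were called higher and 19.6% lower. miR-99b-5p was lower by 1.98 log2 units (interval -1.99 to -1.96), a 3.93-fold lower CPM. miR-125a-3p was higher by 3.52 (3.46 to 3.58), 11.5-fold, and miR-125b-5p by 1.77 (1.68 to 1.85), 3.41-fold. miR-125a-5p (-0.87) and miR-99b-3p (-0.82) lay below WT but within 2-fold. The untested miR-99a-5p had a log2 ratio of 2.74 (2.49 to 3.001) and miR-100-5p of 0.997 (0.75 to 1.24). The miR-100-5p ratio was -0.11 (-0.36 to 0.13) when miR-292-5p was left out of the total. With median-of-ratios scaling it was 0.16 (-0.09 to 0.40), and both of these intervals include 0. A smaller share of a miRNA bound to Ago2, fewer cells that make it and less of it per cell cannot be told apart here.

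The median of all tested miRNAs in K566A was itself 0.91 above WT, and the arms lay on either side of it. Relative to that median miR-99b-5p stood at -2.89, miR-125a-5p at -1.78, miR-99b-3p at -1.73, miR-100-5p at 0.08, miR-125b-5p at 0.85, miR-99a-5p at 1.83 and miR-125a-3p at 2.61. With median-of-ratios scaling, or with a total without miR-292-5p, miR-125a-5p and miR-99b-3p were called lower as well and miR-125b-5p was no longer called. With Q548A in place of WT, a comparison chosen after the data were seen, miR-99b-5p was at -2.15, miR-125b-5p at 1.61 and miR-125a-3p at 4.67, and miR-99b-3p turned to 0.18.

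At most 1 tested arm was called against WT for any of the other 4 mutants. With 5 tested arms, such counts are too small to set apart from the shares of all tested miRNAs given beside them. Arms that were not called could still differ from WT by less than 2-fold. All 5 tested arms had intervals that exclude 0 in both Q548A and GKT_GKGT. In Q548A 1 tested arm was called lower and 0 higher, where 4.45% of all tested miRNAs were lower and 1.78% higher. It was miR-125a-3p (-1.14, interval -1.23 to -1.06), and without miR-292-5p in the total it was at -1.08 (-1.16 to -0.993), of like size but no longer called. miR-99b-3p was at -1.003 (-1.03 to -0.98), an interval that includes exactly 2-fold. In R792A_C793A 0 were called, where 15.7% of all were higher and 6.82% lower. The log2 ratios of its 5 tested arms lay between -0.63 (miR-99b-3p) and 0.62 (miR-99b-5p).

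In GKT_GKGT 1 tested arm was called higher and 0 lower, where 11.0% of all tested miRNAs were higher and 11.9% lower. It was miR-99b-3p, at 1.11 (1.09 to 1.13), and the call held with each scaling tried. The guide arm of the same hairpin, miR-99b-5p, was at 0.12 and miR-125a-5p at -0.55. In PGKTP_AAAAA 1 was called lower and 0 higher, where 33.5% of all were lower and 7.12% higher. It was miR-125a-3p, at -1.37 (-1.53 to -1.22), which was no longer called at -1.12 (-1.28 to -0.964) without miR-292-5p in the total, or at -0.75 (-0.91 to -0.59) with median-of-ratios scaling. The medians of all tested miRNAs were 0.43 in R792A_C793A, 0.07 in Q548A, -0.29 in GKT_GKGT and -0.55 in PGKTP_AAAAA. Those of the 5 tested arms were -0.82 in K566A, 0.28 in R792A_C793A, -0.15 in Q548A, -0.10 in GKT_GKGT and -0.20 in PGKTP_AAAAA.

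Set directly against PGKTP_AAAAA, GKT_GKGT had 1 tested arm called higher and 0 lower, where 25.5% of all tested miRNAs were higher and 5.93% lower. This was miR-125a-3p (1.28, interval 1.11 to 1.44), with 35.8 CPM in GKT_GKGT and 14.8 in PGKTP_AAAAA. miR-99b-3p was at 0.999 (0.97 to 1.03) and miR-99b-5p at 0.32, which equals the median of all tested miRNAs in that comparison.

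**Figure D2:**
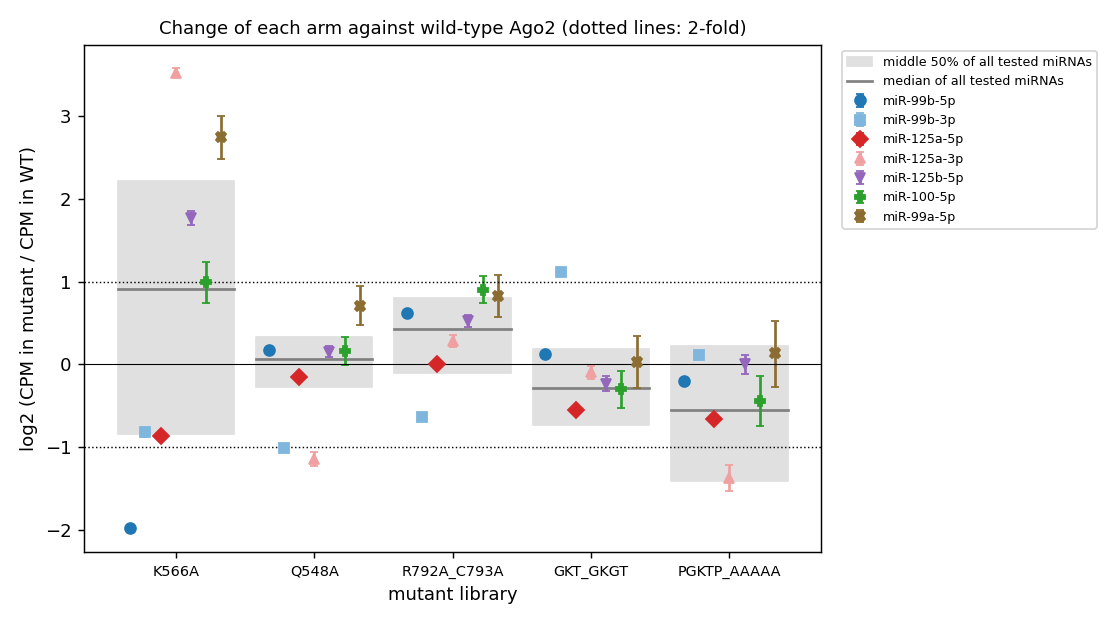
log2 ratio of each arm's CPM in each mutant to that in WT, with exact conditional 95% intervals; the grey box holds the middle 50% of all tested miRNAs and the grey line their median. The arms are most spread in K566A, from -1.98 (miR-99b-5p) to 3.52 (miR-125a-3p).

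Arms of 1 hairpin are compared within a library, so library size cancels. The 3p arm of miR-125a took 26.6% of the hairpin's counts in K566A (exact 95% interval 26.1 to 27.2), 2.06% in R792A_C793A, 0.864% in Q548A, 2.31% in GKT_GKGT, 1.05% in PGKTP_AAAAA and 1.70% in WT. K566A stood alone, with 6560 counts for the 3p arm and 18061 for the 5p arm, against 3628 and 209789 in WT. The odds of the 3p arm were 21.0-fold higher in K566A than in WT (log2 4.39, interval 4.33 to 4.45), the 18th largest rise in 3p odds of 401 hairpins. In the other mutants the log2 odds were 0.28 in R792A_C793A, -0.99 in Q548A, 0.45 in GKT_GKGT and -0.71 in PGKTP_AAAAA, and none of these was called. The 5p arm of this hairpin begins with U and the 3p arm with A.

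The 3p arm of miR-99b took 5.51% of the hairpin's counts in K566A, 1.09% in R792A_C793A, 1.14% in Q548A, 4.95% in GKT_GKGT, 3.15% in PGKTP_AAAAA and 2.55% in WT. It was thus highest in K566A and GKT_GKGT and lowest in Q548A and R792A_C793A. Both of its arms begin with C. The log2 odds against WT were 1.16 (1.10 to 1.21) in K566A, -1.18 (-1.20 to -1.15) in Q548A and -1.25 (-1.28 to -1.22) in R792A_C793A, which were called. In GKT_GKGT they were 0.99 (0.97 to 1.01), an interval that includes 2-fold, and in PGKTP_AAAAA 0.31. Against Q548A in place of WT the R792A_C793A value was -0.069 and was not called, and those of K566A, GKT_GKGT and PGKTP_AAAAA were 2.34, 2.17 and 1.49.

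Of all 401 hairpins, the 3p share was called higher in 19.2% and lower in 18.7% in K566A, 2.99% and 6.23% in Q548A, 8.73% and 11.5% in R792A_C793A, 18.2% and 11.2% in GKT_GKGT, and 14.0% and 10.7% in PGKTP_AAAAA. Against these, the miR-99b and miR-125a hairpins were both called higher in K566A, and miR-99b, but not miR-125a, was called lower in Q548A and R792A_C793A. Between GKT_GKGT and PGKTP_AAAAA neither was called (13.7% of hairpins higher, 8.48% lower). There miR-125a was at 1.16 (0.997 to 1.33) and miR-99b at 0.68.

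The other strands of the remaining genes were scarce. miR-100-3p had 0 counts in all 7 libraries, and miR-99a-3p and miR-125b-2-3p had at most 2 counts in any. miR-125b-1-3p had 17.7 CPM in K566A, 4.41 in R792A_C793A, 3.99 in Q548A, 3.79 in GKT_GKGT, 3.29 in PGKTP_AAAAA and 8.99 in WT. Beside the shared 5p arm it took 13.5% of counts in K566A, 8.41% in R792A_C793A, 9.71% in Q548A, 11.8% in GKT_GKGT, 8.97% in PGKTP_AAAAA and 21.3% in WT (20.0 to 22.5). WT was thus the highest of the 6 libraries for this share, and 3 of the 5 mutants, Q548A, R792A_C793A and PGKTP_AAAAA, were called lower. Each of these rests on the same WT library.

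**Figure D3:**
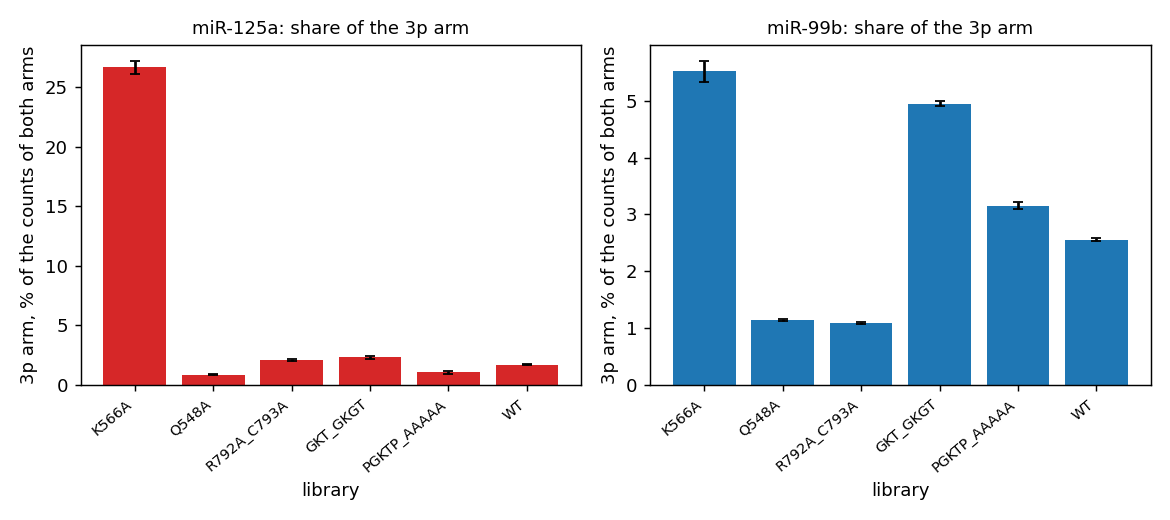
Share of the 3p arm in the counts of both arms (percent, bars from 0) for miR-125a and miR-99b, with exact 95% binomial intervals. For miR-125a K566A stands at 26.6% and the other 5 libraries at 2.31% or below; for miR-99b K566A (5.51%) and GKT_GKGT (4.95%) lie above the rest.

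Relatives with the same seed were then set against each other within each library. For miR-99b-5p, C-first, over miR-100-5p, A-first, the ratio of counts was 317 in K566A, 2041 in R792A_C793A, 2504 in Q548A, 3333 in GKT_GKGT, 2937 in PGKTP_AAAAA and 2487 in WT. K566A stood apart. The log2 change from WT was -2.98 (-3.22 to -2.72) in K566A, -0.28 in R792A_C793A, 0.01 in Q548A, 0.42 (0.20 to 0.65) in GKT_GKGT and 0.23 (-0.06 to 0.55) in PGKTP_AAAAA. Over miR-99a-5p, also A-first, it was -4.72 (-4.98 to -4.46) in K566A, -0.53 in Q548A, -0.21 (-0.47 to 0.05) in R792A_C793A, 0.08 (-0.22 to 0.40) in GKT_GKGT and -0.34 (-0.72 to 0.07) in PGKTP_AAAAA. The values in the loop mutants were all within 2-fold of WT. With miR-99a-5p and miR-100-5p summed, so that their uncertain split does not enter, the change was -3.75 (-3.92 to -3.58) in K566A, -0.18 (-0.31 to -0.05) in Q548A, -0.26 (-0.40 to -0.12) in R792A_C793A, 0.31 (0.13 to 0.49) in GKT_GKGT and 0.04 (-0.19 to 0.28) in PGKTP_AAAAA. Set against Q548A in place of WT, GKT_GKGT was higher by 0.62 (0.33 to 0.92) over miR-99a-5p and by 0.41 (0.20 to 0.63) over miR-100-5p. In the same order, PGKTP_AAAAA was at 0.19 (-0.17 to 0.59) and 0.22 (-0.06 to 0.54), and both intervals include 0. R792A_C793A was at 0.33 (0.10 to 0.56) and -0.29 (-0.45 to -0.14), and K566A at -4.18 (-4.41 to -3.95) and -2.99 (-3.23 to -2.73).

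By comparison, among the other tested miRNAs with a RefSeq sequence (277 of 337 had one), GKT_GKGT had 24 of 51 C-first miRNAs called higher and 0 lower; their median less that of all tested miRNAs was 1.15. For the 71 A-first miRNAs the calls were 0 higher and 21 lower, and that difference was -0.33. In that library miR-99b-5p, C-first, stood 0.41 above the median of all and miR-99b-3p, also C-first, 1.40 above it. The A-first arms were at 0.19 (miR-125a-3p), -0.01 (miR-100-5p) and 0.32 (miR-99a-5p), none of them as low as the A-first median. In PGKTP_AAAAA the C-first calls were 10 higher and 8 lower (difference 0.76), and the A-first calls 3 higher and 40 lower (-0.82). There miR-99b-5p stood at 0.35, miR-99b-3p at 0.66, miR-125a-3p at -0.82, miR-100-5p at 0.11 and miR-99a-5p at 0.68. In K566A the C-first calls were 26 higher and 10 lower (0.18), and the A-first calls 24 higher and 14 lower (-0.57). For the 123 U-first miRNAs the K566A calls were 67 higher and 28 lower (0.49). Relative to the median of all in K566A, miR-125a-5p, U-first, stood at -1.78 and miR-125b-5p, also U-first, at 0.85. The A-first miR-125a-3p stood at 2.61, and the values of the other arms are given above. Outside these families a single pair of tested miRNAs shared a seed with a C-first and an A-first member, miR-25-3p over miR-363-3p. That ratio changed by 0.59 (0.57 to 0.61) in GKT_GKGT and by 1.34 (1.32 to 1.36) in PGKTP_AAAAA. In K566A it changed by 0.56 (0.55 to 0.58), of opposite sign to the miR-99b-5p ratios there, in R792A_C793A by -0.75 (-0.76 to -0.73) and in Q548A by -0.16 (-0.17 to -0.15).

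The ratios between relatives that share a first base changed in K566A as well. miR-100-5p over miR-99a-5p, both A-first, was 0.687 in K566A, 2.43 in R792A_C793A, 1.58 in Q548A, 1.83 in GKT_GKGT, 1.55 in PGKTP_AAAAA and 2.30 in WT. The K566A change was -1.74 (-2.11 to -1.39). miR-125a-5p over miR-125b-5p, both U-first, was 10.7 in K566A, 46.2 in R792A_C793A, 53.5 in Q548A, 53.4 in GKT_GKGT, 41.8 in PGKTP_AAAAA and 66.4 in WT. WT had the highest and K566A by far the lowest ratio, a change of -2.64 (-2.73 to -2.55), and the changes in the other 4 mutants lay between -0.67 and -0.31. miR-351-5p, with the same seed and first base as these, had 60.1 CPM in K566A, 447 in R792A_C793A, 445 in Q548A, 504 in GKT_GKGT, 602 in PGKTP_AAAAA and 479 in WT. Its K566A log2 ratio was -2.99 (-3.09 to -2.90), so 3 miRNAs with 1 seed and 1 first base stood at -2.99, -0.87 and 1.77 in that library.

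**Figure D4:**
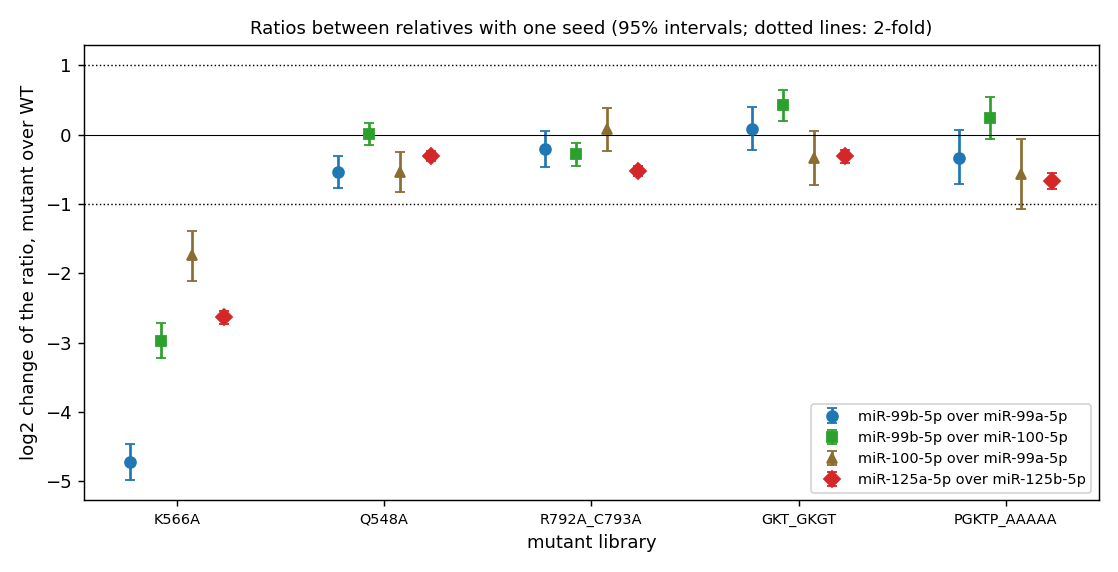
log2 change of the ratio between relatives with the same seed, each mutant over WT, with 95% intervals; the dotted lines mark 2-fold. In K566A the 4 ratios lie between -4.72 and -1.74, and in the other mutants between -0.67 and 0.42.

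Cluster mates from the same transcript did not move together in each library. miR-99b-5p over let-7e-5p, encoded between miR-99b and miR-125a, was 27.4 in K566A, 597 in R792A_C793A, 399 in Q548A, 193 in GKT_GKGT, 193 in PGKTP_AAAAA and 215 in WT. The log2 changes from WT were -2.97 (-3.04 to -2.90) in K566A, 0.89 (0.84 to 0.95) in Q548A and 1.47 (1.40 to 1.55) in R792A_C793A. In both loop mutants they lay within 0.16 of 0 (-0.16 in GKT_GKGT, -0.15 in PGKTP_AAAAA). For miR-125a-5p over let-7e-5p the changes were -1.86 (-1.94 to -1.79) in K566A, 0.56 (0.51 to 0.62) in Q548A and 0.86 (0.79 to 0.93) in R792A_C793A. In GKT_GKGT this ratio changed by -0.83 (-0.88 to -0.77) and in PGKTP_AAAAA by -0.62 (-0.70 to -0.54), unlike that of miR-99b-5p. let-7e-5p, a member of the let-7 family that marks differentiated cells, had 138 CPM in K566A and 69.2 in WT. Its log2 ratio of 0.99 (0.92 to 1.06) was not called and stood 0.08 above the median of all tested miRNAs in K566A. miR-99b-5p over miR-125a-5p, from the ends of that cluster, was 3.12 in K566A, 10.3 in R792A_C793A, 8.45 in Q548A, 10.7 in GKT_GKGT, 9.29 in PGKTP_AAAAA and 6.72 in WT. WT lay between K566A and the other 4 mutants for this ratio.

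In level miR-125b-5p was near let-7c-5p, its mate on chromosome 16. It was below let-7a-5p, its mate on chromosome 9, at 33.3 against 95.5 CPM in WT and 114 against 434 CPM in K566A. miR-99a-5p and miR-100-5p were far below their let-7 mates. miR-125b-5p over let-7c-5p was 0.641 in K566A, 0.951 in R792A_C793A, 0.939 in Q548A, 0.994 in GKT_GKGT, 0.526 in PGKTP_AAAAA and 0.717 in WT. The K566A change of this ratio was -0.16 (-0.27 to -0.05), while both miRNAs had higher CPM there. miR-99a-5p over let-7c-5p ran from 0.0449 in PGKTP_AAAAA to 0.107 in Q548A and was 0.0558 in WT. It changed by 0.81 (0.55 to 1.08) in K566A, 0.94 (0.70 to 1.19) in Q548A, 0.71 (0.44 to 0.98) in R792A_C793A, 0.74 (0.41 to 1.06) in GKT_GKGT and -0.31 (-0.72 to 0.08) in PGKTP_AAAAA, so 4 of the 5 mutants were above the shared WT library. miR-100-5p over let-7a-5p ran from 0.0275 in K566A to 0.132 in R792A_C793A and was 0.0626 in WT, a change of -1.18 (-1.44 to -0.94) in K566A and of 1.07 (0.90 to 1.25) in R792A_C793A, with intervals that include 0 in the other 3 mutants. Both let-7c-5p and let-7a-5p also come from loci outside these clusters, so these ratios mix sources.

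The miRNAs whose levels followed these arms most closely were found by the root-mean-square distance of centred log2 CPM over the 6 Ago2 libraries. For miR-99b-5p they were miR-134-5p (0.31), miR-1968-5p (0.33) and miR-669f-3p (0.35), where the median over 332 miRNAs was 1.39. For miR-125a-5p they were miR-181d-5p (0.25), miR-1199-5p (0.26) and miR-181c-5p (0.26), against a median of 1.01. For miR-100-5p they were miR-135b-5p (0.17), miR-93-5p (0.20) and miR-26b-5p (0.20), against a median of 0.73. miR-134-5p had 514 CPM in K566A and 2865 to 3326 CPM in the other 5 libraries, so it shares with miR-99b-5p a single low library, K566A.

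The empty control gave the background. miR-99b-5p had 539 counts there, or 16108 CPM (exact interval 14787 to 17515), against 14866 CPM in WT, and miR-125a-5p had 62 counts, 1853 CPM against 2212 CPM in WT. Both ratios had intervals that include 1. miR-99b-3p had 8 counts, miR-99a-5p and miR-125b-5p 2 each, and miR-125a-3p 0, which by the limit of 3 counts allows up to 89.7 CPM (the exact interval reaches 110.2 CPM). miR-100-5p had 8 counts, 239 CPM (103 to 471), against 5.98 CPM in WT, a 39.99-fold higher share of its library's counts (17.2 to 79.3). This was the 3rd largest ratio of the 136 miRNAs with at least 5 counts in the control. The 2 counts of miR-99a-5p gave a ratio of 23.0 (2.78 to 84.1). Of 294 miRNAs with a count in the control 4.42% were called higher than in WT, and these 2 arms were among them. Of the let-7 mates, let-7a-5p had 747 CPM (484 to 1103) in the control against 95.5 CPM in WT. let-7c-5p had 448 CPM (251 to 739) against 46.5 CPM, so a higher share in the control was not particular to these arms. let-7e-5p had 89.7 CPM (18.5 to 262) against 69.2 CPM. CPM in the control are shares of 33461 counts in all, against 94842507 in WT. Its 8 counts of miR-100-5p and 539 of miR-99b-5p are few beside the 567 and 1409910 counts in WT.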

How the data were processed

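Per the labels' protocols, the NEBNext kit for small RNA was used on Flag-immunoprecipitated RNA from mouse embryonic stem cells (7 samples, 1 library each) and sequencing was done on an Illumina HiSeq. The authors deposited raw counts for 1078 loci of mature miRNAs. CASAVA 1.8.2, TopHat2 2.0.9 and mm9 are named in the submitters' processing notes. Not given in the sources used here: the counting program, annotation release, use of strand and handling of reads that match several loci.

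From the deposited counts, each of 959 mature names was counted once, by its highest locus, and 9 names were merged with another of equal counts (within 1% or 3 counts, sum at least 200), leaving 950. CPM used the total of these. Ratios to WT were computed for the 337 miRNAs that averaged 10 CPM or more in the 6 Ago2 libraries, and 3p-to-5p odds for 401 hairpins with a sum of at least 100 and arm starts within 150 nt. Intervals are exact conditional, or Woolf's where all 4 counts reached 500, at 95%. Log2 arm and pair ratios carry a pseudocount of 0.5. A call needs the interval to pass 2 or 0.5. With 1 library per group no p-value is given. Totals per library and what they limit are given above.

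Alternatives were median-of-ratios scaling, a total without miR-292-5p, summed loci, no merging, a fold of 1.5, other filters (1 CPM, none), a pseudocount of 5 and, added after the data were seen, Q548A in place of WT. The members and lists were chosen with earlier results of these data known. All members and fixed cluster mates are named, with the 3 miRNAs nearest in pattern to miR-99b-5p, miR-125a-5p and miR-100-5p. miR-351-5p and the pair miR-25-3p and miR-363-3p were named from a search by seed. Python 3.11.15, NumPy 2.4.6, pandas 2.3.3, SciPy 1.17.1 and Matplotlib 3.10.9 were used.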

Additional observations from a re-analysis of the deposited data

How the results depend on the processing

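No paired analysis was possible because each group has 1 library and the labels carry no replicate numbers. The number of arms called was 3 in K566A, 1 each in Q548A, GKT_GKGT and PGKTP_AAAAA and 0 in R792A_C793A. In Q548A it was 2 with median-of-ratios scaling and 0 without miR-292-5p in the total, and in PGKTP_AAAAA 0 with either. A fold of 1.5 gave 5 in K566A and 2 each in R792A_C793A, Q548A and PGKTP_AAAAA. In K566A both scalings gave 4 called arms, with miR-125b-5p no longer among them. With median-of-ratios scaling the share of all tested miRNAs called was 64.4% in K566A, 7.42% in Q548A and 33.2% in PGKTP_AAAAA. That share was not computed for a fold of 1.5, the total without miR-292-5p, summed loci or Q548A in place of WT. Counts of called arms under those settings therefore have no background to be read against. Summed loci and other filters kept each count within 1.5 times. Scaling by median of ratios would move log2 ratios by -0.84 in K566A, -0.36 in R792A_C793A, -0.10 in Q548A, 0.18 in GKT_GKGT and 0.62 in PGKTP_AAAAA, which turned the sign of 5 of 35 arm ratios, and the total without miR-292-5p turned 5. None of these 35 was both called and reversed. A pseudocount of 5 kept all 25 arm and pair changes within their intervals.

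With Q548A in place of WT, chosen after the data were seen, the 3p odds of miR-99b were 2.34 in K566A, -0.069 in R792A_C793A, 2.17 in GKT_GKGT and 1.49 in PGKTP_AAAAA, and those of miR-125a were 5.38 in K566A, 1.27 in R792A_C793A, 1.44 in GKT_GKGT and 0.28 in PGKTP_AAAAA; R792A_C793A then had 1 called arm, miR-125a-3p. With miR-99a-5p and miR-100-5p summed, the miR-99b-5p ratio changed by -3.75 in K566A and -0.18 in Q548A. The causes of these differences were not tested. Depth limits miR-99a-5p and miR-100-5p most, with 71 and 110 counts in PGKTP_AAAAA.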
